A study of Homo sapiens with 8 samples.

Results

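The eukaryotic translation initiation factors eIF1 to eIF6 and the elongation factors eEF1 and eEF2 were followed in TAL1-FKBP12 Jurkat cells treated for 24 hours. Members were taken by symbol from the gene count table: names beginning with EIF1 to EIF6, EEF1 or EEF2, without the EIF2AK kinases, the EIF4EBP inhibitors and pseudogene symbols. This gave 64 of 63677 listed rows and 62 distinct symbols, because EIF4H and EIF2D each have a second row with 0 counts in all libraries. Of the 64 rows, 54 had enough counts to be tested, among 15646 genes tested in all, and 53 of the 54 were protein-coding. The symbols also bring in proteins that are not factors themselves, among them EEF2K, the kinase that inhibits eEF2. Others are EIF4ENIF1 (a protein that binds eIF4E and moves it into the nucleus) and EEF1E1 (a scaffold protein of the aminoacyl-tRNA synthetase complex). Families follow the symbols alone, so a family can hold more than the subunits of the factor it is named after.

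Jurkat is an established line of T-cell acute lymphoblastic leukaemia, and all groups carried TAL1, a transcription factor of this leukaemia, fused to FKBP12. The 4 groups of 2 libraries each were the combination (dTAG-13 with GSI), GSI, dTAG-13 and DMSO, the solvent. dTAG-13 recruits an FKBP12-tagged protein to a ubiquitin ligase for degradation, and GSI usually stands for a gamma-secretase inhibitor, which blocks the cleavage that activates NOTCH receptors. The labels give neither doses nor the meaning of the prefix SC3, and do not say whether replicates were separate cultures, so the p-values speak only of the spread among these libraries, and that spread may be technical.

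Initiation begins when eIF2 brings the initiator tRNA to the small ribosomal subunit, together with eIF1, eIF1A, eIF3 and eIF5, while eIF4F (the cap-binding eIF4E, the scaffold eIF4G and the helicase eIF4A) brings in the mRNA. eIF2B reloads eIF2 with GTP, eIF5B joins the subunits, and eIF6 keeps the large subunit apart until it is needed. During elongation eEF1A delivers aminoacyl-tRNA, the eEF1B subunits reload eEF1A with GTP, eEF2 moves the ribosome along the mRNA, and eIF5A, which carries the modified residue hypusine, helps at stalled peptide bonds.

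Total counts ran from 17544319 to 22180009 per library, so a count of 0 allows up to 0.135 to 0.171 CPM (counts scaled to the library size), a limit that covers counting error only. Of 10 T cell markers, 10 had counts, and they summed to 2867 to 3362 CPM per library. Summed B cell markers reached at most 0.415 CPM, myeloid markers 0.610 CPM with MPO at 0, erythroid and megakaryocytic markers 1.16 CPM with HBB and PF4 at 0, and epithelial and stromal markers 4.10 CPM with EPCAM, KRT18 and CDH1 at 0. The NOTCH targets DTX1 and HES1 fell with GSI averaged over both backgrounds (log2 fold change -2.72 and -2.28). TAL1 mRNA, which does not report on the loss of the protein, did not pass in dTAG-13 against DMSO (log2 fold change -0.13, adjusted p 0.9996 by edgeR's quasi-likelihood test with Benjamini-Hochberg adjustment). Replicates differed more in the combination and GSI (12.6 and 13.4 as chi-square over its degrees of freedom) than in dTAG-13 and DMSO (5.92 and 4.45), and replicate 1 of the combination and of GSI stood apart for the members, as described with the results.

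Together the members held 1.93% and 1.98% of all counts in the combination, 1.87% and 1.94% in GSI, 2.08% and 2.07% in dTAG-13, and 2.09% and 2.05% in DMSO. The combination and GSI libraries lay below all dTAG-13 and DMSO libraries in this share. EEF1A1, which encodes the main eEF1A, took 26.6% to 28.99% of the member counts. EEF1A1, EEF2, EIF5A and EIF4G2 together took 52.7% to 54.6%.

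Levels of different genes were compared as mean CPM per kilobase of transcript over the DMSO libraries, with the median length of the coding transcripts in GENCODE 29. On this scale elongation led: EEF1A1 stood at 1633 CPM per kb, EEF2 at 963, EIF5A at 934 and EEF1B2, an exchange subunit of eEF1B, at 447. Of the eIF3 subunits, 12 of 13 lay between 52.5 CPM per kb (EIF3A, the largest subunit) and 307.6 CPM per kb (EIF3E). Only EIF3C stood below at 5.005. Among the eIF4 members, the scaffold EIF4G1 had 111.9 CPM per kb and its relative EIF4G2 had 325.5. EIF4E and its relatives EIF4E2 and EIF4E3 had 54.3, 59.9 and 1.81 CPM per kb. These values depend on the length used. The median coding transcript of EIF4E has 1114.5 bases and its principal transcript 11523, and for EIF4G2 these are 3654 and 1969 bases. The order of such genes is therefore not firm. The eIF2B subunits, from 14.6 CPM per kb (EIF2B3) to 82.1 (EIF2B1), lay mostly below the eIF2 subunits EIF2S1, EIF2S2 and EIF2S3 (44.9, 91.0 and 73.9 CPM per kb).

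**Figure D1:**
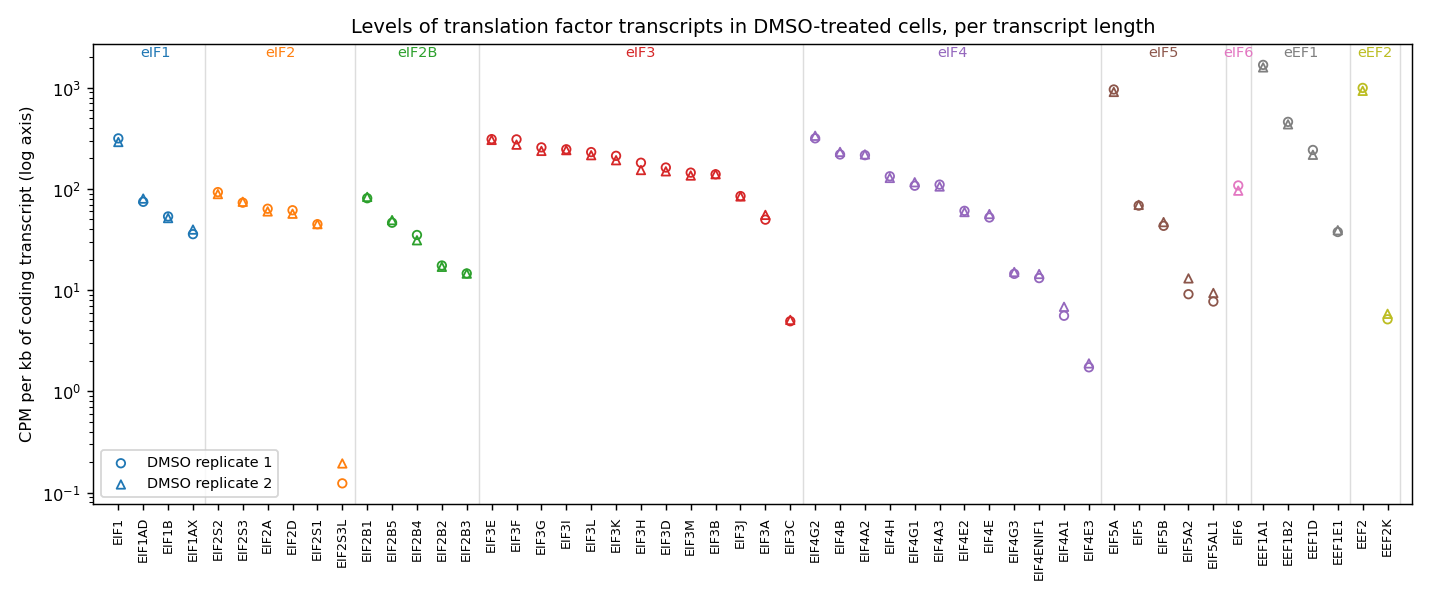
Levels of tested coding members in the 2 DMSO libraries, in CPM per kb of coding transcript on a log axis, by family and from high to low within a family (EIF1AY is left out). EEF1A1 is highest at a mean of 1633 CPM per kb, EIF3C is the lowest eIF3 subunit at 5.005, and EIF4E3 and EIF4A1 are the lowest of the eIF4 family at 1.81 and 6.21.

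Several levels have a counting limit. Among the higher ones, EEF1A1, EEF1B2 and EIF3L share 23.2%, 24.8% and 33.2% of their 100-base windows with other genes. Some low values have larger shares. EIF3C and its near copy EIF3CL share 95.1% and 97.1% of their 100-base windows with each other, and reads that match both could be left uncounted or split. EIF4A1, the main eIF4A helicase in many cells, stood at only 6.21 CPM per kb in DMSO, against 217.4 CPM per kb for its paralogue EIF4A2. All 100-base windows of EIF4A1 (100%) occur in other transcripts of GENCODE 29, and 83.9% occur in 1 overlapping readthrough transcript on the same strand. EEF1G, the eEF1B gamma subunit, had 5 counts over all 8 libraries, and 99.9% of its exon bases lie in another gene on the same strand. The levels of EIF3C, EIF3CL, EIF4A1 and EEF1G are therefore not read as expression. The annotation of the lengths and overlaps is not the one used for the counts.

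The other rows that were not tested were at or near 0. EEF1A2, the eEF1A of muscle and neurons, had 45 counts over 8 libraries, between 2 and 9 each. EIF3CL had 45 counts, and the antisense RNA EIF1AX-AS1 had 9. The remaining 6 rows, among them EIF4E1B, an eIF4E relative of oocytes, had 0 counts in every library. EIF1AY, on the Y chromosome, was tested and is counted among the 54, without its level.

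Many mRNAs of the translation machinery begin with a C followed by a run of pyrimidines, the terminal oligopyrimidine (TOP) motif through which mTOR signalling controls their translation. RefSeq start sites (GRCh38.p14) were given for 49 of the 62 symbols. A C followed by at least 4 pyrimidines within 5 bases of the start was present for 23 of the 49 (46.9%), against 25.2% of all 27305 genes with a promoter entry. The starts of 8 such members are shown because they include the most abundant elongation factors and 4 eIF3 subunits; each is 30 bases long, and the capitals mark the run that begins with C.
EEF1A1 (chr6:73521013-73521042, minus strand): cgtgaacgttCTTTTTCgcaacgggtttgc
EEF2 (chr19:3985444-3985473, minus strand): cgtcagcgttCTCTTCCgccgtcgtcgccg
EEF1B2 (chr2:206159885-206159914, plus strand): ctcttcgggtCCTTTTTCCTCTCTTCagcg
EIF4B (chr12:53006446-53006475, plus strand): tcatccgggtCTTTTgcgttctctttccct
EIF3F (chr11:7987327-7987356, plus strand): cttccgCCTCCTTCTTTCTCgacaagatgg
EIF3K (chr19:38619178-38619207, plus strand): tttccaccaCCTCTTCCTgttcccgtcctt
EIF3D (chr22:36529147-36529176, minus strand): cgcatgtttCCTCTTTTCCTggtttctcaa
EIF3M (chr11:32583821-32583850, plus strand): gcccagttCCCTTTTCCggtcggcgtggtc
These runs differ in length, from CTTTT in EIF4B to CCTTTTTCCTCTCTTC in EEF1B2. The match is a description of letters near an annotated start. The 27305 genes were not limited to tested genes, and a gene with several starts counted if any start matched.

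The effect of GSI was read as the average of GSI against DMSO and the combination against dTAG-13, which share no library. In this average 4 members fell and 0 rose: EIF3B, EIF3D, EIF4G1 and EIF5AL1 (edgeR quasi-likelihood test, Benjamini-Hochberg adjusted p below 0.05 over all genes tested). That is 7.41% of the 54 members, beside 3.56% of all genes lower and 3.38% higher by edgeR. DESeq2's Wald test called 6 members, these 4 with EIF3I and EIF5A. It was run without the filter on low counts, over all 64 member rows. The share of all genes that DESeq2 called is not given, so its count does not single out the members. The fitted changes were small and mostly of one sign: 49 of 54 members were negative (90.7%), with a median log2 fold change of -0.14, against 48.4% negative and a median of 0.01 over all genes tested. At an unadjusted p below 0.05 there were 19 members (35.2%), 18 of them negative, against 21.9% of all genes. In bulk RNA, fewer cells of a type and less RNA per cell cannot be told apart.

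The count of 4 depended on single libraries, and the share of all genes called in the fits below is not given. Leaving out a library gave 2 and 12 calls without combination replicates 1 and 2, 2 and 9 without GSI replicates 1 and 2, 1 and 0 without dTAG-13 replicates 1 and 2, and 1 and 0 without DMSO replicates 1 and 2. Without both replicate 1 libraries of the combination and of GSI, a choice made after seeing the data, 4 members were called lower (EIF3B, EIF4G1, EIF5AL1 and EEF2K) and 1 higher (EIF3J-AS1), and EIF3D was not called. In that fit 44 of 54 were negative and the median was -0.07.

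**Figure D2:**
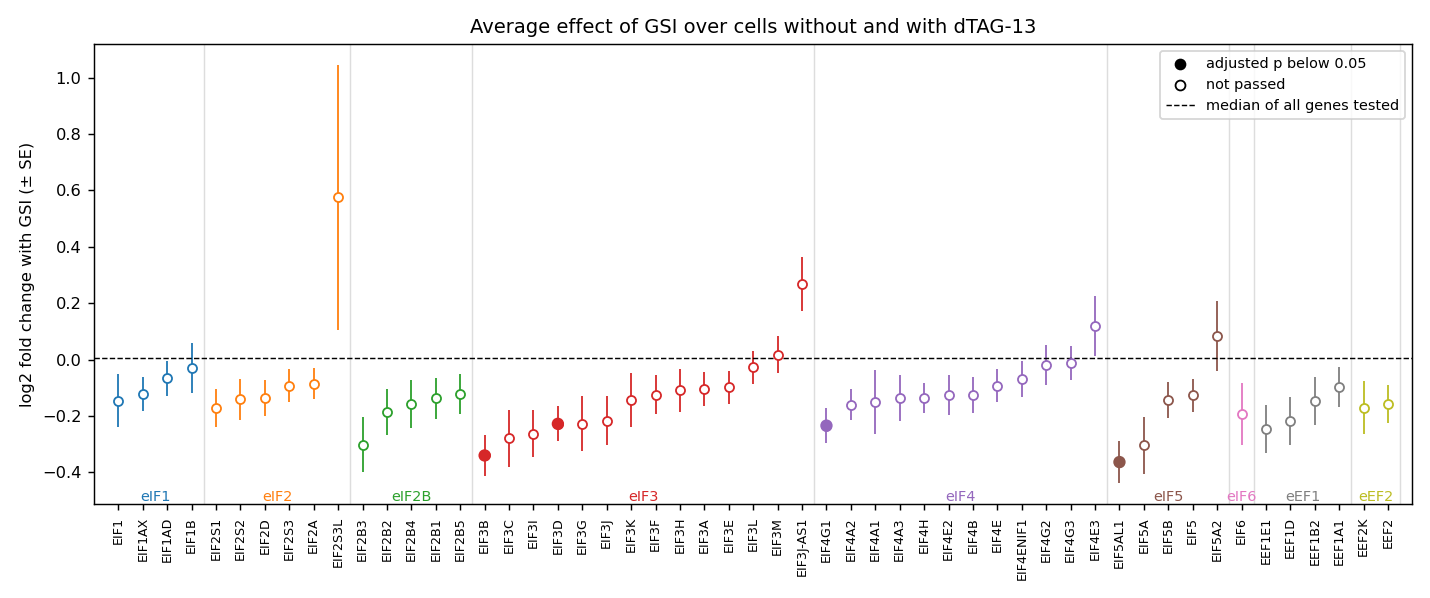
Average GSI effect on each tested member (EIF1AY left out) as log2 fold change ± SE from the edgeR model of 8 libraries, grouped by family; filled points passed at adjusted p below 0.05. Most points lie below the dashed median of all genes tested (0.01), and the filled points are EIF3B, EIF3D, EIF4G1 and EIF5AL1.

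In CPM without any fit, all 4 libraries with GSI (the combination and GSI) lay below all 4 without it (dTAG-13 and DMSO) for 15 of 54 members (27.8%), against 8.22% of all genes. They lay above for 1 member (1.85%), EIF3J-AS1, against 7% of all genes. The 15 were EIF3B, EIF3C, EIF3D, EIF3I, EIF4A2, EIF4G1, EIF4H, EIF5, EIF5A, EIF5AL1, EIF2S1, EIF2B3, EEF1A1, EEF1E1 and EEF2. They come from the eIF2, eIF2B, eIF3, eIF4, eIF5, eEF1 and eEF2 families.

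Replicate 1 carried the larger difference. With libraries compared within their replicate number, the median member difference on the log2(CPM + 0.5) scale between GSI and DMSO was -0.18 for number 1 and -0.06 for number 2. Between the combination and dTAG-13 it was -0.20 for number 1 and -0.10 for number 2. Both numbers thus showed the same sign in both backgrounds, with 43, 36, 49 and 44 of 54 members negative in that order. Replicate 2 exceeded replicate 1 by a median of 0.16 in the combination and 0.11 in GSI, against 0.06 in dTAG-13 and -0.01 in DMSO, so the replicate gap in the groups with GSI was about as large as the median GSI effect. The part of this gap in the result was not tested.

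**Figure D3:**
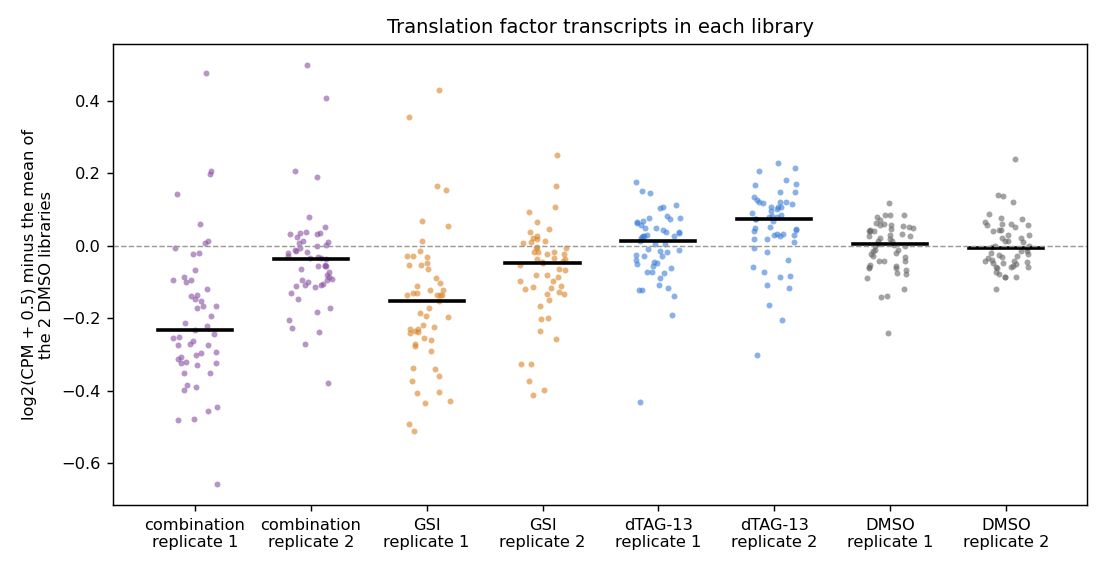
Each point is 1 tested member (EIF1AY left out) in 1 library, as log2(CPM + 0.5) minus the mean of the 2 DMSO libraries, and the bar is the median. Replicate 1 of the combination and of GSI lie lowest (medians -0.23 and -0.15), and replicate 2 of each lies at -0.04 and -0.05.

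eIF3, the largest initiation factor, binds the small subunit and bridges it to eIF4G. Of its 13 protein subunits, 2 fell with GSI in the average effect and 0 rose, beside 3.56% of all genes lower and 3.38% higher. Negative values were seen for 12 (median log2 fold change -0.14), beside 48.4% of all genes. EIF3B, a core subunit that holds the eIF3g and eIF3i subunits, had 301.6 and 364.7 CPM in the combination, 316.8 and 356.8 CPM in GSI, 431.8 and 423.4 CPM in dTAG-13, and 420.1 and 420.7 CPM in DMSO. All 4 libraries with GSI lay below all 4 without, and replicate 1 was lower than replicate 2 in both the combination and GSI. The log2 fold change of EIF3B was -0.34 (SE 0.07, adjusted p 0.0146, edgeR quasi-likelihood test with Benjamini-Hochberg adjustment), and it was -0.36 in the combination against dTAG-13 and -0.32 in GSI against DMSO, neither of which passed alone (adjusted p 0.131 and 0.157 by the same test).

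EIF3D, the subunit that can itself bind the cap of some mRNAs, had 249.4 and 276.9 CPM in the combination, 264.6 and 289.2 CPM in GSI, 320.8 and 319.1 CPM in dTAG-13, and 325.9 and 298.9 CPM in DMSO. The groups with and without GSI did not overlap, but the gap between GSI replicate 2 and DMSO replicate 2 was narrow (-0.05 on the log2 scale). Its average log2 fold change was -0.23 (SE 0.06, adjusted p 0.0485, edgeR quasi-likelihood test with Benjamini-Hochberg adjustment). EIF3B lost its call without either dTAG-13 library (adjusted p 0.0603 for replicate 1 and 0.0603 for replicate 2) or either DMSO library (0.0767 and 0.0865) by that test. EIF3D kept its call only without combination replicate 2 (adjusted p 0.0230) or GSI replicate 2 (0.0303), and without any other library its adjusted p lay between 0.120 and 0.220.

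Other eIF3 subunits were not called by edgeR, and DESeq2's Wald test called EIF3I among them. EIF3I, the subunit next to eIF3b, had an average log2 fold change of -0.26 (SE 0.08), with 261.3 and 330.6 CPM in the combination, 276.9 and 325.9 CPM in GSI, 338.5 and 383.0 CPM in dTAG-13, and 359.2 and 352.3 CPM in DMSO. EIF3G, an RNA-binding subunit, and EIF3J, a loosely bound subunit, had -0.23 and -0.22. EIF3A, the scaffold of the complex, had -0.10 (SE 0.06), with 251.9 and 269.9 CPM in the combination, 286.5 and 288.9 CPM in GSI, 308.0 and 284.7 CPM in dTAG-13, and 276.9 and 308.5 CPM in DMSO. These ranges overlap. EIF3M had 457.7 and 506.5 CPM in the combination and 430.2 and 472.6 CPM in GSI. It had 462.4 and 505.99 CPM in dTAG-13 and 453.2 and 424.2 CPM in DMSO, with overlapping ranges. EIF3L and EIF3M had average log2 fold changes of -0.03 and 0.02, so the fitted changes of the subunits of 1 complex ranged from -0.34 to 0.02.

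EIF3C, subject to the counting limit above, had 9.73 and 13.2 CPM in the combination, 13.3 and 11.96 CPM in GSI, 13.6 and 13.5 CPM in dTAG-13, and 15.4 and 15.9 CPM in DMSO. Its log2 fold change of -0.45 in the combination against DMSO was the lowest of the members there (adjusted p 0.191, edgeR quasi-likelihood test with Benjamini-Hochberg adjustment). It was -0.25 without combination replicate 1, and -0.69 with a call (adjusted p 0.0392 by that test) without combination replicate 2. The noncoding EIF3J-AS1 had 11.7 and 14.1 CPM in the combination, 11.8 and 12.6 CPM in GSI, 10.9 and 9.74 CPM in dTAG-13, and 10.97 and 10.1 CPM in DMSO. All 4 libraries with GSI lay above all 4 without, while EIF3J had a negative value; their exons do not overlap in GENCODE 29. Its average log2 fold change of 0.27 (SE 0.10) did not pass (adjusted p 0.117 by the same test), and passed at 0.36 without replicate 1 of both the combination and GSI.

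The 12 tested EIF4 members hold the parts of eIF4F, the complex at the cap, and other eIF4 proteins. In the average GSI effect 1 fell and 0 rose, beside 3.56% of all genes lower and 3.38% higher. Negative values were seen for 11, beside 48.4% of all genes, and the median was -0.13. EIF4G1, the main scaffold that joins the cap-binding protein, the helicase and eIF3, had 449.3 and 490.4 CPM in the combination, 485.6 and 479.9 CPM in GSI, 551.9 and 541.2 CPM in dTAG-13, and 551.4 and 596.9 CPM in DMSO. The libraries with GSI lay between 449.3 and 490.4 CPM, below those without at 541.2 to 596.9 CPM. The average log2 fold change was -0.23 (SE 0.06, adjusted p 0.0389, edgeR quasi-likelihood test with Benjamini-Hochberg adjustment). EIF4G1 kept its call without combination replicate 2 (adjusted p 0.0202 by that test), and without any other single library the adjusted p lay between 0.0561 and 0.205.

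The cap-binding EIF4E and the helicases EIF4A1 and EIF4A2, partners of EIF4G1 in eIF4F, were called by neither edgeR nor DESeq2. Its partner eIF3 is described above, with called subunits. EIF4E, which binds the cap, had 60.3 and 62.2 CPM in the combination, 56.3 and 55.6 CPM in GSI, 63.2 and 65.3 CPM in dTAG-13, and 58.2 and 62.9 CPM in DMSO, and its average log2 fold change was -0.09 (SE 0.06). The ranges of the libraries with and without GSI overlap. EIF4A2, a helicase, had 387.5 and 387.4 CPM in the combination, 378.3 and 368.4 CPM in GSI, 435.4 and 437.8 CPM in dTAG-13, and 410.2 and 417.5 CPM in DMSO. These groups did not overlap, and the log2 fold change was -0.16 (SE 0.05, adjusted p 0.105, edgeR quasi-likelihood test with Benjamini-Hochberg adjustment). EIF4A1, with 8.52 and 8.34 CPM in the combination, 8.82 and 8.01 CPM in GSI, 7.42 and 9.65 CPM in dTAG-13, and 9.18 and 11.3 CPM in DMSO, gave no separation at its low counted level.

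EIF4G2, a scaffold relative that lacks the eIF4E-binding part, and EIF4G3, a paralogue of EIF4G1, had average log2 fold changes of -0.02 and -0.01 (SE 0.07 and 0.06). Among the 3 EIF4G genes the lower value was thus seen for EIF4G1. The difference between paralogues was not tested. EIF4E3, a weak cap binder, had 12.8 and 11.3 CPM in the combination, 15.0 and 11.1 CPM in GSI, 11.7 and 12.4 CPM in dTAG-13, and 10.5 and 11.5 CPM in DMSO. Its positive average of 0.12 (SE 0.11) came with overlapping groups and was -0.04 without replicate 1 of the combination and GSI.

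**Figure D4:**
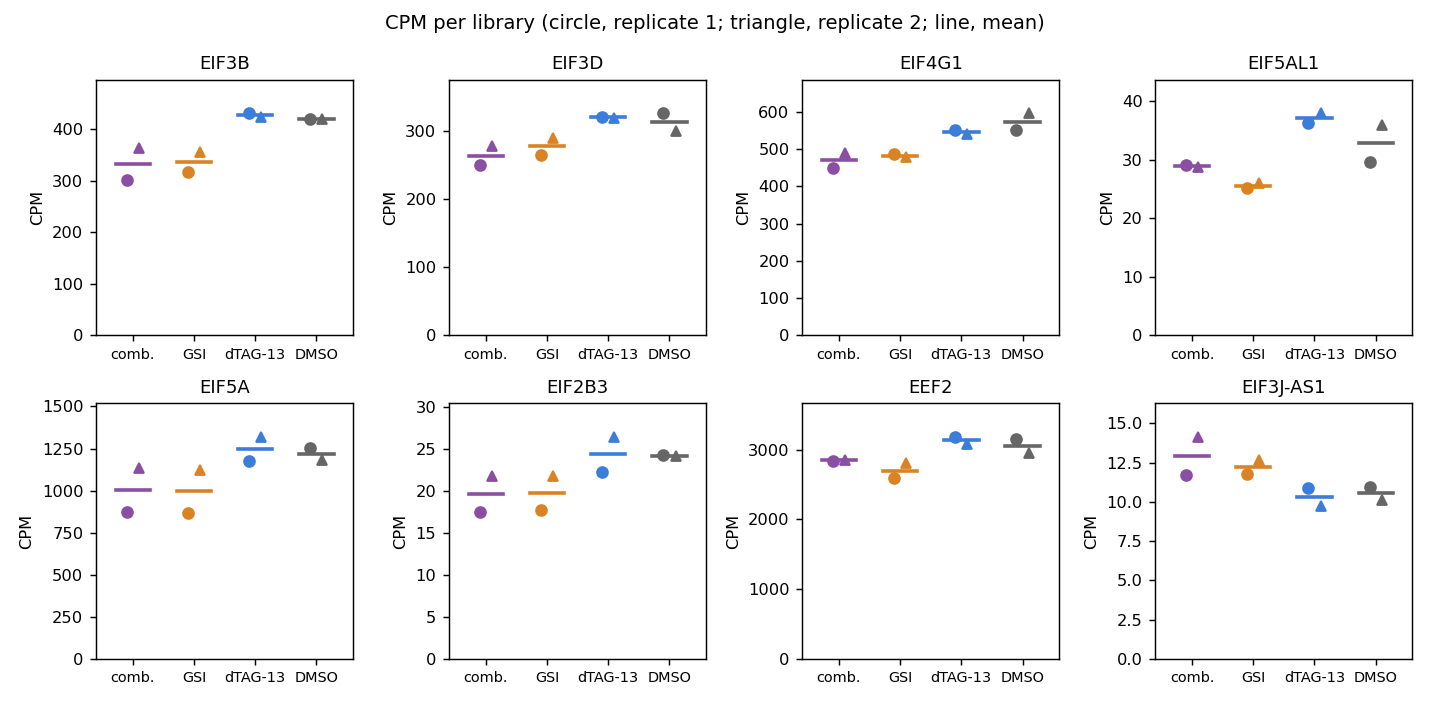
CPM per library for 8 members: the 4 called in the average GSI effect, EIF5A, EIF2B3 and EEF2, which were lower in all libraries with GSI without a call by edgeR (DESeq2's Wald test called EIF5A), and EIF3J-AS1, which was higher. Circles are replicate 1, triangles replicate 2 and lines the mean of 2; each axis starts at 0.

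MYC, a transcription factor known to bind the E-box CACGTG in promoters of many translation genes, fell with GSI in the average effect (log2 fold change -0.83, SE 0.06, adjusted p 1.1e-05, edgeR quasi-likelihood test with Benjamini-Hochberg adjustment). MYC mRNA had 200.2 and 225.1 CPM in the combination, 170.1 and 189.7 CPM in GSI, 347.6 and 352.2 CPM in dTAG-13, and 349.2 and 340.1 CPM in DMSO. The RefSeq promoters, from 250 bases before to 50 after each start, were searched for CACGTG, which reads the same on both strands. It was present for 11 of the 49 matched members (22.4%), against 2396 of 27305 genes (8.77%). The 27305 genes were not limited to tested genes, and a gene with several starts counted if any start matched.

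The 250 bases before the start are shown for the called members EIF4G1, EIF3B and EIF3D, with CACGTG in capitals (RefSeq, GRCh38.p14). They are also shown for EIF4E, the cap-binding partner of EIF4G1, which was not called.
EIF4G1 (chr3:184314356-184314605, plus strand): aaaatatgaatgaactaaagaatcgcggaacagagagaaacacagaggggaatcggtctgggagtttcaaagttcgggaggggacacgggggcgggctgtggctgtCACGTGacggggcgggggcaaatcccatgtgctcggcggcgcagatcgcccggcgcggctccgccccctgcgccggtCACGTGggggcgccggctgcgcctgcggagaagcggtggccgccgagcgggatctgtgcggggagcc
EIF4E (chr4:98929134-98929383, minus strand): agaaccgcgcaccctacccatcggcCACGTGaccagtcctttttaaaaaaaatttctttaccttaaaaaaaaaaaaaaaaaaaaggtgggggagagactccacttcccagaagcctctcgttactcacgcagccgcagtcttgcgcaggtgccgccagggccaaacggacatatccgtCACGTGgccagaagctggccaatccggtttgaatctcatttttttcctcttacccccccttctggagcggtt
EIF3B (chr7:2354577-2354826, plus strand): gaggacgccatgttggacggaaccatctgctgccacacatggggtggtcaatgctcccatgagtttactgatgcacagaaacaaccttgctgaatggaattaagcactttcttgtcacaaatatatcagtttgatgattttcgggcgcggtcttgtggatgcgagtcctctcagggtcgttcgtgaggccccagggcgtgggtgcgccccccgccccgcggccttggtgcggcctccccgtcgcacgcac
EIF3D (chr22:36529167-36529416, minus strand): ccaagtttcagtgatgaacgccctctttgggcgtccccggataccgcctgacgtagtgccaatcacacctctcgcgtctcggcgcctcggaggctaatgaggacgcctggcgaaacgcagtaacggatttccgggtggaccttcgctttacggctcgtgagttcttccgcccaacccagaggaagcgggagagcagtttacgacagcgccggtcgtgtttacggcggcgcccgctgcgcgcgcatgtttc
The EIF4G1 window holds CACGTG at -144 and -67, counted from the start, and the other listed starts of this gene hold none. EIF4E holds it at -225 and -72, and EIF3B and EIF3D hold none in this window. The called member EIF5AL1, not shown, holds none in its promoter either.

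Among the tested members with a promoter entry, those with CACGTG had a median average GSI effect of -0.136 (log2 fold change), against -0.145 for those without it. Members with the oligopyrimidine run had a median of -0.132, against -0.143 without it. Neither difference was tested.

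The 5 tested EIF5 members cover start codon release, subunit joining and eIF5A. In the average GSI effect 1 fell and 0 rose, beside 3.56% of all genes lower and 3.38% higher. Of the 5 members 4 were negative (median log2 fold change -0.14), beside 48.4% of all genes. EIF5AL1, an intronless copy of EIF5A, had 29.05 and 28.7 CPM in the combination, 25.1 and 25.9 CPM in GSI, 36.2 and 38.0 CPM in dTAG-13, and 29.6 and 36.0 CPM in DMSO. The groups with and without GSI did not overlap, though DMSO replicate 1 lay close to the combination. The average log2 fold change was -0.36 (SE 0.08, adjusted p 0.0138, edgeR quasi-likelihood test with Benjamini-Hochberg adjustment), and the call was lost without DMSO replicate 2 (0.100) or dTAG-13 replicate 2 (0.0754) by that test.

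EIF5A, the expressed parent gene, had 870.9 and 1136 CPM in the combination, 865.2 and 1124 CPM in GSI, 1177 and 1320 CPM in dTAG-13, and 1251 and 1183 CPM in DMSO. The highest library with GSI lay just below the lowest without it. Its log2 fold change of -0.30 (SE 0.10) was close to that of EIF5AL1 but did not pass (adjusted p 0.0960, edgeR quasi-likelihood test with Benjamini-Hochberg adjustment), with a wide spread between replicates. EIF5A shares 10.3% of its 100-base windows with EIF5AL1, so the counts of EIF5AL1 can hold reads of EIF5A. EIF5A2, a paralogue, had 7.21 and 6.28 CPM in the combination, 7.04 and 7.04 CPM in GSI, 6.77 and 6.48 CPM in dTAG-13, and 5.20 and 7.45 CPM in DMSO, and the DMSO range covered all other libraries.

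EIF5, which makes eIF2 hydrolyse GTP at the start codon, had an average log2 fold change of -0.13 (SE 0.06). EIF5B, the subunit-joining GTPase, had 194.9 and 227.0 CPM in the combination, 238.0 and 237.1 CPM in GSI, 266.9 and 250.4 CPM in dTAG-13, and 226.2 and 246.2 CPM in DMSO. The combination lay below dTAG-13 without overlap, while both GSI libraries lay within the DMSO range. The log2 fold changes were -0.29 in the combination against dTAG-13 and 0.01 in GSI against DMSO, and the test of their difference gave -0.30 (SE 0.13, adjusted p 0.9999, edgeR quasi-likelihood test with Benjamini-Hochberg adjustment).

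eIF2 loads the initiator tRNA, and eIF2B recycles eIF2. The EIF2 symbols also bring in EIF2A, EIF2D and EIF2S3L beside the eIF2 subunits EIF2S1, EIF2S2 and EIF2S3. Among the 11 tested members of both families edgeR and DESeq2 called 0 in the average GSI effect. At an unadjusted p below 0.05 in edgeR there were 3 of the 11, beside 21.9% of all genes. Of the 5 eIF2B subunits, 5 were negative (median log2 fold change -0.16), and of the 6 tested EIF2 members 5 were negative (median -0.11). EIF2B3, the gamma subunit of eIF2B, had 17.5 and 21.8 CPM in the combination, 17.8 and 21.8 CPM in GSI, 22.3 and 26.5 CPM in dTAG-13, and 24.3 and 24.2 CPM in DMSO. The groups did not overlap, but the highest library with GSI lay next to dTAG-13 replicate 1. The log2 fold change was -0.30 (SE 0.10, adjusted p 0.0884, edgeR quasi-likelihood test with Benjamini-Hochberg adjustment).

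EIF2B5, the catalytic epsilon subunit, had 94.6 and 117.8 CPM in the combination, 103.4 and 110.9 CPM in GSI, 118.2 and 119.1 CPM in dTAG-13, and 110.3 and 117.0 CPM in DMSO, with overlapping ranges and a log2 fold change of -0.12 (SE 0.07). EIF2S1, the alpha subunit whose phosphorylation blocks eIF2B, had 127.8 and 152.9 CPM in the combination, 135.6 and 148.6 CPM in GSI, 157.1 and 171.0 CPM in dTAG-13, and 154.1 and 154.3 CPM in DMSO. All libraries with GSI were below those without, and the log2 fold change was -0.17 (SE 0.07, adjusted p 0.163, edgeR quasi-likelihood test with Benjamini-Hochberg adjustment). EIF2S3L, an intronless copy of the gamma subunit, was counted at 0.10 to 0.62 CPM, and its fitted value of 0.57 had an SE of 0.47.

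The factors eIF1 and eIF1A guard start codon choice, and the EIF1 symbols also bring in EIF1AD. This family had the median closest to 0, with 5 of 5 negative and a median log2 fold change of -0.07. EIF1 itself had -0.15 (SE 0.09), EIF1AX -0.12 (SE 0.06) and EIF1B -0.03 (SE 0.09), and none passed. EIF6, which binds the large subunit, had 101.8 and 128.9 CPM in the combination, 89.4 and 125.7 CPM in GSI, 115.9 and 137.7 CPM in dTAG-13, and 135.5 and 120.3 CPM in DMSO. Replicate 1 was the lower one in the combination, GSI and dTAG-13, and the ranges overlap. The log2 fold change of EIF6 was -0.19 (SE 0.11), and it was 0.0006 without replicate 1 of the combination and GSI.

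The EEF1 and EEF2 members include EEF1E1 and EEF2K, which are not elongation factors themselves. In the average GSI effect edgeR called 0 of 4 tested EEF1 and 0 of 2 tested EEF2 members, and DESeq2 none. All 6 had negative values, beside 48.4% of all genes. At an unadjusted p below 0.05 there were 3 (EEF1D, EEF1E1 and EEF2), beside 21.9% of all genes. EEF1A1 had 5371 and 5426 CPM in the combination, 4995 and 5299 CPM in GSI, 5574 and 5700 CPM in dTAG-13, and 5788 and 5470 CPM in DMSO. The combination and GSI libraries lay below the others by a narrow margin, with a log2 fold change of -0.10 (SE 0.07). EEF2 had 2839 and 2853 CPM in the combination, 2586 and 2810 CPM in GSI, 3185 and 3086 CPM in dTAG-13, and 3148 and 2945 CPM in DMSO.

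EEF2 separated more widely, its log2 fold change being -0.16 (SE 0.07, adjusted p 0.203, edgeR quasi-likelihood test with Benjamini-Hochberg adjustment). Its kinase EEF2K had 37.9 and 31.0 CPM in the combination, 36.8 and 30.6 CPM in GSI, 39.7 and 32.8 CPM in dTAG-13, and 38.1 and 43.1 CPM in DMSO, with overlapping ranges and -0.17 (SE 0.10). The value for EEF2K was -0.10 without dTAG-13 replicate 1, -0.11 without GSI replicate 2 and -0.10 without combination replicate 2. Without replicate 1 of both the combination and GSI it was -0.32 and passed (adjusted p 0.0145, edgeR quasi-likelihood test with Benjamini-Hochberg adjustment). The exchange factor subunits EEF1D and EEF1B2 had log2 fold changes of -0.22 (SE 0.08) and -0.15 (SE 0.09), and EEF1E1 had -0.25 (SE 0.08).

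GSI alone against DMSO gave 0 called members in edgeR (adjusted p below 0.05) and 0 in DESeq2's Wald test, beside 0.863% of all genes lower and 0.876% higher. At an unadjusted p below 0.05 there were 4 members (7.41%), against 14% of all genes. The members nevertheless leaned to one side, with 45 of 54 negative and a median log2 fold change of -0.12, against 48.6% negative of all genes. The median was -0.05 without GSI replicate 1 and -0.16 without GSI replicate 2.

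The combination against dTAG-13, the GSI effect in cells that also received dTAG-13, likewise gave 0 called members in edgeR and 0 in DESeq2, beside 0.569% of all genes lower and 0.639% higher. There were 12 members (22.2%) at an unadjusted p below 0.05, 11 of them negative, against 13% of all genes. Of the 54 members 51 were negative (94.4%), against 50.2% of all genes, with a median log2 fold change of -0.15. The median was -0.08 without combination replicate 1 and -0.26 without combination replicate 2.

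These 2 comparisons share no library. In them 45 members (83.3%) were negative in both, against 34.5% of all genes tested, and 3 members (5.56%) were positive in both, against 35.6%. Across the members Pearson's r between both sets of log2 fold changes was 0.50, beside 0.44 across all genes; genes are not independent replicates, and the value is a description. The difference between both GSI effects was called for 0 members and 0% of all genes in either direction by edgeR, for 0 members by DESeq2, and 1 member, EIF5B, had an unadjusted p below 0.05, against 1.66% of all genes.

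**Figure D5:**
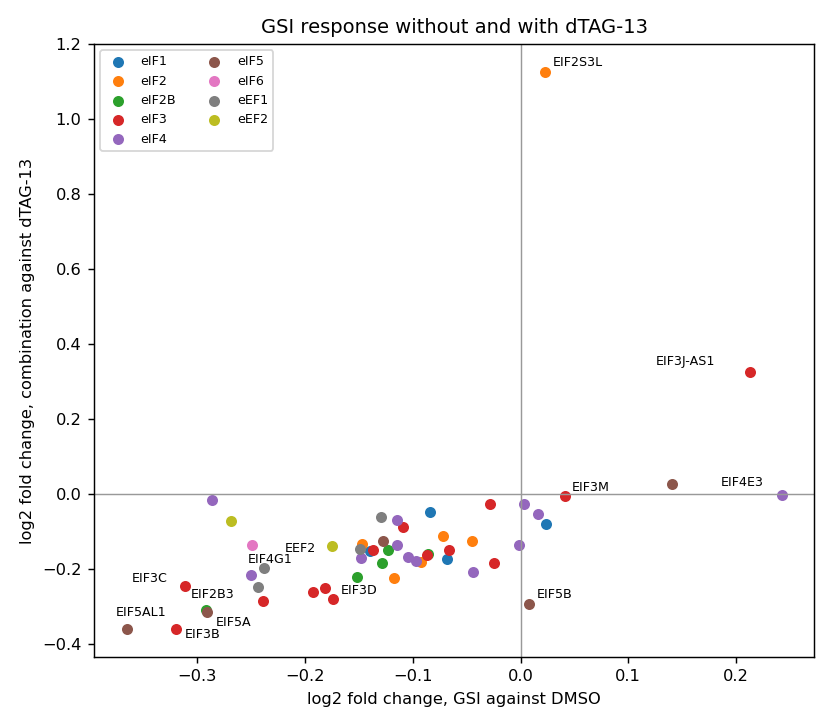
Log2 fold change of each tested member (EIF1AY left out) in GSI against DMSO (x axis) and in the combination against dTAG-13 (y axis), coloured by family. Most members lie in the lower left part, negative in both, and EIF3J-AS1 lies in the upper right; the high point EIF2S3L was counted below 1 CPM.

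The combination against DMSO gave 0 called members in edgeR and 0 in DESeq2, beside 0.767% of all genes lower and 0.543% higher, with 5 members (9.26%) at an unadjusted p below 0.05 against 12.4% of all genes. These were EIF3B, EIF3C, EIF3D, EIF3I and EIF4G1, all negative. Of 54 members 46 were negative (median log2 fold change -0.12). The median was -0.03 without combination replicate 1 and -0.23 without combination replicate 2.

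With dTAG-13 the members' medians lay near 0. In dTAG-13 against DMSO edgeR and DESeq2 each called 0 members, 0 had an unadjusted p below 0.05 (3.84% of all genes), and edgeR called 0.0192% of all genes lower and 0% higher. The median log2 fold change was 0.03, and the values ran from -0.27 (EIF4A1) to 0.17 (EIF5AL1). Of the 54 members 15 were negative (27.8%), against 48.1% of all genes. The median was 0.07 without dTAG-13 replicate 1 and 0.01 without dTAG-13 replicate 2. In the combination against GSI, edgeR and DESeq2 also called 0 members, with 0 at an unadjusted p below 0.05 (4.14% of all genes), beside 0.0383% of all genes lower and 0.0192% higher, and 31 of 54 members were negative (median -0.01). The sign of that median depended on single libraries: it was 0.08 with 10 negative without combination replicate 1 and -0.09 with 41 negative without combination replicate 2, and -0.07 and 0.05 without GSI replicates 1 and 2.

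The 2 dTAG-13 comparisons share no library either, and 44.4% of the members had the same sign in both, against 57.0% of all genes. The average dTAG-13 effect called 0 members in edgeR and 0 in DESeq2, beside 0.422% of all genes lower and 0.0767% higher. Its member median was 0.01 with 20 negative, and it was 0.06 with 9 negative without combination replicate 1 and -0.05 with 34 negative without combination replicate 2. At an unadjusted p below 0.05 there were 2 members, EIF4G3 (log2 fold change -0.16) and EIF5AL1 (0.18), against 6.08% of all genes. EIF4G3 had 71.3 and 77.6 CPM in the combination, 87.9 and 80.2 CPM in GSI, 77.0 and 74.7 CPM in dTAG-13, and 82.1 and 85.5 CPM in DMSO, so both groups with dTAG-13 lay below both without it.

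In the authors' deposited tables, made with DESeq2, 0 of the 54 members had an adjusted p below 0.05 in any treatment against DMSO. The lowest adjusted p in the authors' deposited tables was 0.106 for the combination, 0.0882 for GSI and 0.9999 for dTAG-13. The authors' deposited table gives EIF3B a log2 fold change of -0.34 in the combination and -0.33 in GSI.

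Genes that act beside the factors were described from other lists in the average GSI effect, where 3.56% of all genes were lower. Of 45 large-subunit and 31 small-subunit ribosomal proteins, all 76 were negative (medians -0.19 and -0.19), against 48.4% of all genes, while edgeR and DESeq2 each called 0; 9 of the large-subunit and 5 of the small-subunit genes had an unadjusted p below 0.05, against 21.9% of all genes. The hypusine, polyamine and diphthamide list, whose products modify eIF5A and eEF2, had 5 of 13 members lower and 0 higher (median -0.22). SRM, which makes the spermidine from which hypusine is built, had 194.7 and 262.7 CPM in the combination, 191.0 and 256.2 CPM in GSI, 319.4 and 347.5 CPM in dTAG-13, and 331.0 and 306.0 CPM in DMSO. The groups did not overlap, and SRM fell by 0.53 on the log2 scale (SE 0.10, adjusted p 0.0102, edgeR quasi-likelihood test with Benjamini-Hochberg adjustment).

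ODC1 and AMD1, earlier polyamine enzymes, fell by 0.28 and 0.30 on the log2 scale, and DPH2 and DPH5, enzymes of the diphthamide modification of eEF2, fell by 0.40 and 0.28. The enzymes that place hypusine on eIF5A did not pass: DHPS had a log2 fold change of -0.05 and DOHH of -0.23. DPH2 was the member of these lists, NOTCH targets aside, that passed in GSI against DMSO alone (log2 fold change -0.49, adjusted p 0.0339, edgeR quasi-likelihood test with Benjamini-Hochberg adjustment).

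Among 8 termination and recycling genes 2 fell, ABCE1, which splits ribosomes after termination (log2 fold change -0.31), and GSPT1, the release factor eRF3a (-0.25), and 8 of 8 were negative. Of 22 aminoacyl-tRNA synthetase genes 4 fell, AIMP2, VARS, FARSB and LARS (-0.41, -0.34, -0.32 and -0.26), with a median of -0.15. Among 13 other initiation cofactors ABCE1 and BZW2, a mimic of eIF5 (-0.37), fell. Of 27 regulators 2 fell, MLST8 and AKT1S1, components of the mTOR complex (-0.34 and -0.33), and of 10 mitochondrial translation factors 1 fell, MRRF (-0.27). No gene of these lists rose, and among 6 selenocysteine genes edgeR and DESeq2 called 0, with 0 at an unadjusted p below 0.05 (median 0.01).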

How the data were processed

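The data were strand-specific paired-end RNA sequencing libraries of 8 samples, per the labels' protocols. Per the submitters' processing notes, the genome is hg19 and the tools named are STAR 2.5.2a, DESeq2 1.12.4 and featureCounts. Which annotation was counted, and with what strand setting, is not given in the sources used here. The authors deposited integer counts per gene and library, and 3 tables of 1 treatment against DMSO, in which the deposited log2 fold changes, their errors and the adjusted p-values are the authors' own.

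Counts were filtered with filterByExpr, scaled by TMM and then fitted over all 4 groups in 1 quasi-likelihood model (edgeR 4.0.16 in R 4.3.3, robust, 4 residual degrees of freedom, common biological coefficient of variation 0.0804). The 8 comparisons used 2-sided tests adjusted by Benjamini-Hochberg over 15646 genes, with a threshold of 0.05. CPM are TMM-scaled. The fit was also run on counts simulated from its own dispersions. These lack the replicate gap of the data, so the run cannot show how that gap bears on the calls.

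The members and all lists were chosen with earlier results of these data known, so the leaning of translation genes with GSI is not independent of that choice. Full values are given for called members, for the 4 highest and 4 lowest members with a mean of at least 5 CPM in the main comparisons, and for 13 fixed genes, of which EEF1A2 was not tested. Transcript lengths, overlaps and shared 100-base windows come from GENCODE 29 on GRCh38, another build than the counts, and start sites and sequences from RefSeq GRCh38.p14. No coordinates come from the deposited files.

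Alternatives were no filter on low counts, DESeq2's size factors in edgeR, DESeq2 1.42.0's Wald test, a replicate block, a fit of the compared libraries alone and leaving out each library. A block with crossed DMSO numbers, plain library totals, and leaving out replicate 1 of both the combination and GSI were added after seeing the data. A marker gene that was read is not reported here.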

Additional observations from a re-analysis of the deposited data

How the results depend on the processing

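Counts of called members that moved are given here by comparison (average GSI effect, 4 in the report). Without the filter on low counts there were 10, with a replicate block 10, and with plain library totals 2; leaving out 1 library gave 0 to 12. DESeq2's size factors gave 4, DESeq2's Wald test 6 and leaving out replicate 1 of both the combination and GSI 5. In GSI against DMSO (0 in the report), no filter gave 2 and leaving out both replicate 1 libraries gave 1. In the combination against DMSO (0), no filter gave 1 and leaving out 1 library 0 to 2. In the combination against dTAG-13 (0), no filter gave 2, the replicate block 1 and leaving out 1 library 0 to 1. The other comparisons gave 0 under every alternative run. The replicate numbers were not taken to pair the samples: deviations of same-numbered libraries correlated at 0.14 to 0.21 among the combination, GSI and dTAG-13 but at -0.11 to -0.03 between these and DMSO; with the DMSO numbers crossed the block called 8 members in GSI against DMSO, 8 in the combination against DMSO, 11 in the combination against dTAG-13 and 32 in the average GSI effect. The crossing was added after seeing the data. For all the alternatives in this section the share of all genes called is not given, so these counts do not single out the members. The cause of these shifts was not tested. Some named members changed sign. EIF3M ran from -0.0296 to 0.106 in GSI against DMSO and from -0.0210 to 0.0525 in the average GSI effect when 1 library was left out. EIF5A2 ran from -0.0821 to 0.437 in GSI against DMSO, from -0.0280 to 0.232 in the average GSI effect and from -0.142 to 0.377 in the combination against DMSO. Without replicate 1 of both the combination and GSI, EIF5A2 was -0.0258 in the combination against DMSO, and EIF4E3 was -0.0439 and EIF6 0.000648 in the average GSI effect. With plain library totals the adjusted p of EIF3D and EIF4G1 was 0.0545 and 0.0588 (edgeR). In fits with a group of 1 library, that library is assumed to vary like the other groups.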

Other observations

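Inhibitors and kinases that act on the factors, left out of the members by their symbols, were also read. EIF4EBP1, which blocks eIF4E, had 27.6 and 37.1 CPM in the combination, 23.5 and 36.03 CPM in GSI, 38.6 and 45.9 CPM in dTAG-13, and 38.2 and 35.1 CPM in DMSO. Replicate 1 was the lower library in the combination, GSI and dTAG-13, the ranges with and without GSI overlapped, and the average GSI effect of -0.34 on the log2 scale did not pass (adjusted p 0.135, edgeR quasi-likelihood test with Benjamini-Hochberg adjustment). EIF4EBP2, a second inhibitor of eIF4E, had a positive average log2 fold change of 0.11 that did not pass either (adjusted p 0.365 by the same test). The eIF2 kinases EIF2AK1, EIF2AK2, EIF2AK3 and EIF2AK4 had average log2 fold changes of -0.07, -0.13, 0.07 and -0.14, with edgeR adjusted p-values of 0.178 (EIF2AK4) to 0.717 (EIF2AK3).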
